A study of Mus musculus with 6 samples.

Results

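The cytosolic ribosomal protein genes of primary murine hepatocytes were taken as the protein-coding genes whose GENCODE M21 symbol begins with Rpl or Rps and a digit, or is Rplp0, Rplp1, Rplp2 or Rpsa. Symbols with -ps and the ribosomal S6 kinases (Rps6k) were left out. The rule gave 86 of the 41388 genes listed, 52 with large subunit symbols and 34 with small subunit symbols. Of these, 77 encode proteins of the cytosolic ribosome (46 large, 31 small). The other 9 were the paralogs Rpl3l, Rpl7l1, Rpl10l, Rpl22l1, Rpl36al, Rpl39l and Rps27l, the intronless copy Rps27rt, and Rps19bp1, which encodes a protein that binds a ribosomal protein and is no part of the ribosome. Fau and Rack1 encode ribosomal proteins under names that the rule does not match and are described after the members.

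Hepatocytes were freshly isolated from WT C57BL/6J mice by collagenase digestion and kept in culture overnight. They then received an adenovirus encoding either β galactosidase (β-gal replicates 1, 2 and 3) or ALOXE3 (Aloxe3 replicates 7, 8 and 9), at 1000000 viral particles for 1000000 cells, and polyadenylated RNA was sequenced 24 hours later. ALOXE3 is the epidermal-type lipoxygenase eLOX3. Both groups carried a virus, there were no uninfected cells among these libraries, and nothing in the labels says that the 3 libraries of a group came from separate mice or cultures. The p-values therefore measure the spread between these libraries, which may be technical. The libraries held 25521908 to 32431318 reads assigned to genes, as worked back from the RPKM values (reads per kilobase of gene length per 1000000 assigned reads). The transduced gene checked the labels: Aloxe3 had 2.04, 2.06 and 1.74 RPKM in the β-gal libraries, against 42.3, 45.8 and 56.4 RPKM in the Aloxe3 libraries, a difference of 4.05 on the log2(RPKM + 1) scale (SE 0.10, limma adjusted p = 4.74e-06).

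Aloxe3 replicate 9 stood apart from the other libraries in the ribosomal protein genes. The SD over 83 members of the log2 difference from the β-gal mean was 0.27 in this library (0.19 without Rps27rt, described below). In Aloxe3 replicates 7 and 8 the SD was 0.09 and 0.13. It was 0.06 to 0.09 in the β-gal libraries, which are themselves part of the β-gal mean. Aloxe3 replicate 9 held the lowest of the 6 values for 39 of the 83 members (47.0%, against 30.1% of all genes tested), and the highest for 16 (19.3%, against 19.9%). Values without it are given beside the differences and medians that moved most when it was left out. The summed level of 8 hepatocyte markers was 5032 to 5081 RPKM in β-gal libraries and 4871 to 5011 RPKM in Aloxe3 libraries, with no overlap, lower with Aloxe3 like most members. Of these markers Ttr, the thyroid hormone carrier transthyretin, fell from 124.1 ± 6.5 to 100.5 ± 1.1 RPKM (SD, n = 3 libraries per group, limma adjusted p = 0.0448). The limma adjusted p of Ttr was 0.0793 to 0.150 with each library left out in turn. The summed markers of other cell types were 3.60 to 6.71 RPKM for Kupffer cells (7 genes), 15.9 to 18.5 RPKM for endothelial cells (6 genes), 4.32 to 4.83 RPKM for stellate cells (6 genes, Lrat at 0), 0.25 to 0.39 RPKM for leukocytes (5 genes, Nkg7 at 0) and 2.74 to 4.19 RPKM for erythroid cells (3 genes). The 5 cholangiocyte markers summed to 1509 to 1593 RPKM in β-gal libraries and 1577 to 1716 RPKM in Aloxe3 libraries, and only 3 of the 5 reached 0.5 RPKM. The part of either marker list in the results was not tested. In such bulk RNA, fewer cells of a type and less RNA per cell cannot be told apart.

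A ribosome joins a large subunit, which forms peptide bonds, to a small subunit, which reads the mRNA. Each ribosomal protein is present in a single copy per ribosome, apart from the stalk proteins Rplp1 and Rplp2, and the cell makes the proteins in matched amounts. Their mRNAs are among the most abundant of the cell and start with a tract of C and T bases at the very 5′ end, the TOP motif (terminal oligopyrimidine), through which the kinase mTOR controls their translation according to nutrients. In mammals the family has left many processed pseudogenes, intronless copies of the mRNAs scattered over the genome.

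The TOP feature is shown by 30 bases around a start that RefSeq gives (GRCm38.p6), with the start as the base after the first 10 bases. The capitals mark the longest run of C and T. Rps27 (chr3:90213629-90213658, minus strand), Rpl35a (chr16:33056472-33056501, plus strand), Rpl7a (chr2:26910797-26910826, plus strand) and Rplp2 (chr7:141447641-141447670, plus strand) hold long runs, and Rps28 (chr17:33824543-33824572, minus strand), the member with the smallest p below, holds a short one. RefSeq also gives other starts for Rpl35a. Their windows (chr16:33056443-33056472 and chr16:33056504-33056533) have longest runs of only 4 and 5 bases. An annotated start can differ from the base used in these cells.
Rps27: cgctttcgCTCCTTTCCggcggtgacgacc
Rpl35a: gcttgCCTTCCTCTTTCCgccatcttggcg
Rpl7a: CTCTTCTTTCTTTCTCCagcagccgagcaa
Rplp2: cagcgTCTTCCTTTCgccgccggacgccgc
Rps28: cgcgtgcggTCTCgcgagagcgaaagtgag

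RefSeq start windows were matched by symbol for 66 of the 86 members. A run of at least 8 C or T bases on the transcribed strand, within 20 bases before to 30 bases after the start, was present in 34 of the 66 (51.5%), against 21.5% of 27025 genes with a window. CTCTTTCC, which is itself such a run, was present in this stretch in 3 of the 66 (4.55%, against 0.266% of all genes). In the whole 300-base window and on either strand, CCGGAAG, the core recognised by ETS factors, was present in 26 of the 66 (39.4%, against 9.93%), GCCATCTT in 6 (9.09%, against 3.19%) and TATAAA, the TATA box, in 7 (10.6%, against 15.7%). These are counts of letters in the windows.

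The copies of the family bear on what the RPKM values can show, since only uniquely aligned reads of 50 bases were counted. Coding sequences are therefore shown as 50-base windows from GENCODE M21 (GRCm38), which is the length of a read. A gene that overlaps a member on the genome was not counted as another gene. The first coding window of Rpl8 (exon 1, chr15:76904313-76904362, plus strand) was found in no other annotated gene. The window of Rpl23a (exon 3, chr11:78181504-78181553, minus strand) was found exactly in 17 other genes, and that of Rpl21 (exon 4, chr5:146834994-146835043, plus strand) in 33.
Rpl8: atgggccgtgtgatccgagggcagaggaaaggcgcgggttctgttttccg
Rpl23a: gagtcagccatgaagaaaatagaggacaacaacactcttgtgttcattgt
Rpl21: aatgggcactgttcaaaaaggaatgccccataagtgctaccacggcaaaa

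The levels of the 77 ribosomal protein genes spanned a 2765-fold range, from 0.755 RPKM (Rpl23a) to 2087 RPKM (Rplp1) as means of the 6 libraries, with a median of 25.9 RPKM. Rpl8 stood at 1449 RPKM and Rpl21 at 1.27 RPKM. For 29 of the 77 genes, every 50-base window of the coding sequence was found exactly in at least 1 other annotated gene that does not overlap it. These 29 genes had a median level of 4.89 RPKM and a median of 181.5 reads per library. The 11 genes with under 50% of their windows elsewhere had a median of 394 RPKM, and the 37 genes in between 43.9 RPKM. Of the genes that shared a window, 95.7% were pseudogenes.

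**Figure D1:**
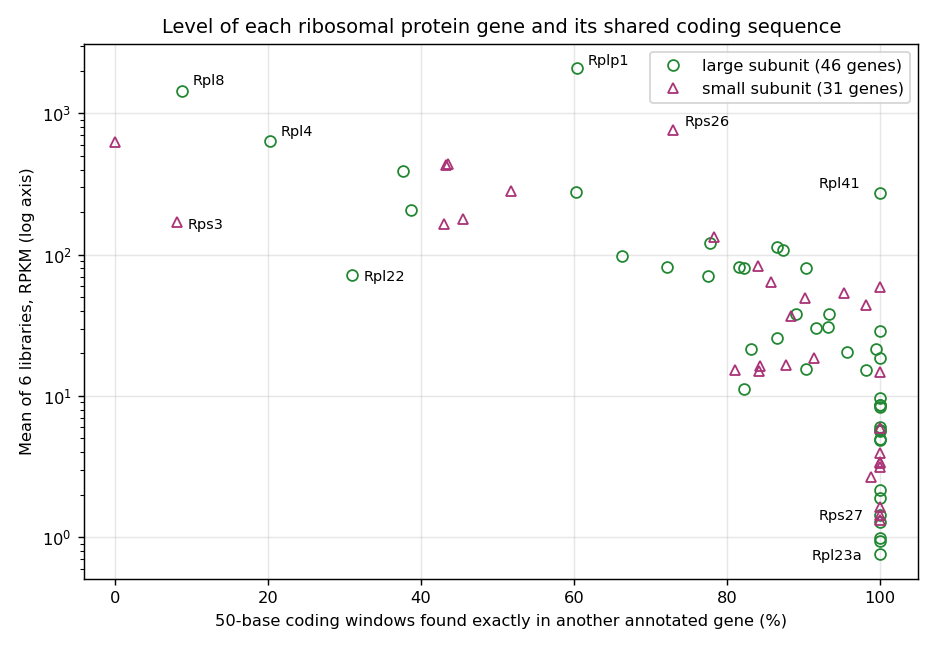
Mean level of each of 77 ribosomal protein genes (RPKM, log axis, mean of 6 libraries) against the percent of its 50-base coding windows found exactly in another annotated gene that does not overlap it; circles are large and triangles small subunit genes. Rpl8 (8.73% of windows) and Rpl4 (20.3%) stand at 1449 and 633 RPKM, and all but 1 of the 25 genes under 10 RPKM sit at 100%.

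Across the 77 genes the Spearman correlation between the mean RPKM and the share of windows found elsewhere was -0.84, and the Pearson correlation with log2 of the mean was -0.74. It was -0.87 for the mean reads in place of RPKM (Spearman). The points are genes of the same 6 libraries and are not replicates, and the correlation is given as a description. Of the 25 genes under 10 RPKM, 24 had 100% of their windows elsewhere. Of the 19 genes at 100 RPKM or more, 1 did, the very short Rpl41 with 26 windows. The transcript length showed no such relation (Spearman 0.095). The order of levels is one of uniquely assigned reads, and how far it departs from the order of the mRNAs was not tested.

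At the top of the large subunit stood Rplp1, Rpl8, Rpl4 (633 RPKM), Rpl32 (394 RPKM) and Rplp0 (278 RPKM). Among the highest of the small subunit were Rps26 (763 RPKM), Rps15 (435 RPKM) and Rps14 (281 RPKM). Of these 8 genes, Rps26 held the highest share of windows elsewhere, 73.0%. Lowest among the tested genes were Rpl23a, Rpl24 (0.945 RPKM), Rpl19 (0.988 RPKM), Rpl21 and Rpl5 (1.45 RPKM) on the large subunit, all with 100% of their windows elsewhere. On the small subunit they were Rps27rt (0.888 RPKM), Rps27 (1.32 RPKM), Rps29 (1.43 RPKM), Rps6 (1.63 RPKM) and Rpsa (2.68 RPKM), with 98.8% for Rpsa and 100% for the others.

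The gene length behind an RPKM value also differed. It ran from 255 to 6262 bases over the 77 genes, with a median of 1464 bases. Rps15a and Rps24, both proteins of the small subunit, had similar reads, 3272 and 3359 in β-gal replicate 1. Their levels in that library were 16.2 and 123.9 RPKM, over lengths of 6262 and 840 bases.

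**Figure D2:**
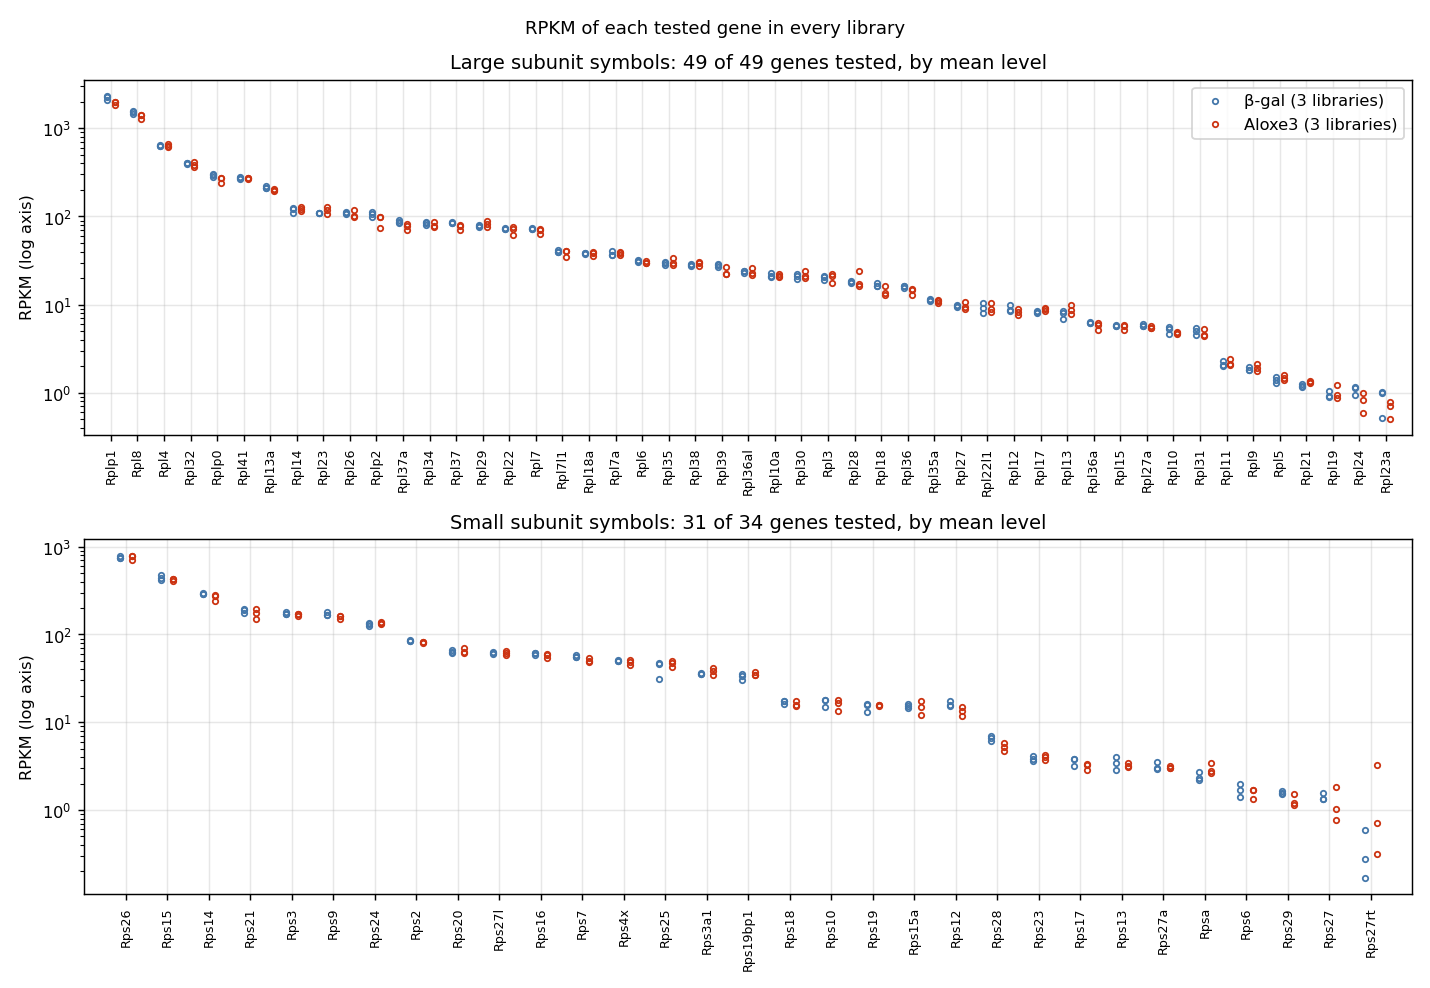
RPKM (log axis) of 49 large (top) and 31 of 34 small subunit genes tested (bottom) in each of the 6 libraries, ordered by mean level. Blue circles are the 3 β-gal and red circles the 3 Aloxe3 libraries; the circles of a gene lie close together against the range between genes, and Rps27rt is spread widest, from 0.167 to 3.27 RPKM.

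Together the 86 genes took 3.23%, 3.27% and 3.12% of the summed RPKM in β-gal replicates 1, 2 and 3, and 3.05%, 3.13% and 2.86% in Aloxe3 replicates 7, 8 and 9. The means were 3.21% ± 0.08 and 3.01% ± 0.14 (SD, n = 3 each), and Aloxe3 replicate 8 lay above β-gal replicate 3, so the groups overlapped. Without Aloxe3 replicate 9 the difference went from -0.19 to -0.11 percentage points. Much of it lay in Rplp1 and Rpl8, the 2 most abundant members. Without them the shares were 2.07%, 2.14% and 2.07% with β-gal and 2.03%, 2.11% and 1.94% with Aloxe3.

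**Figure D3:**
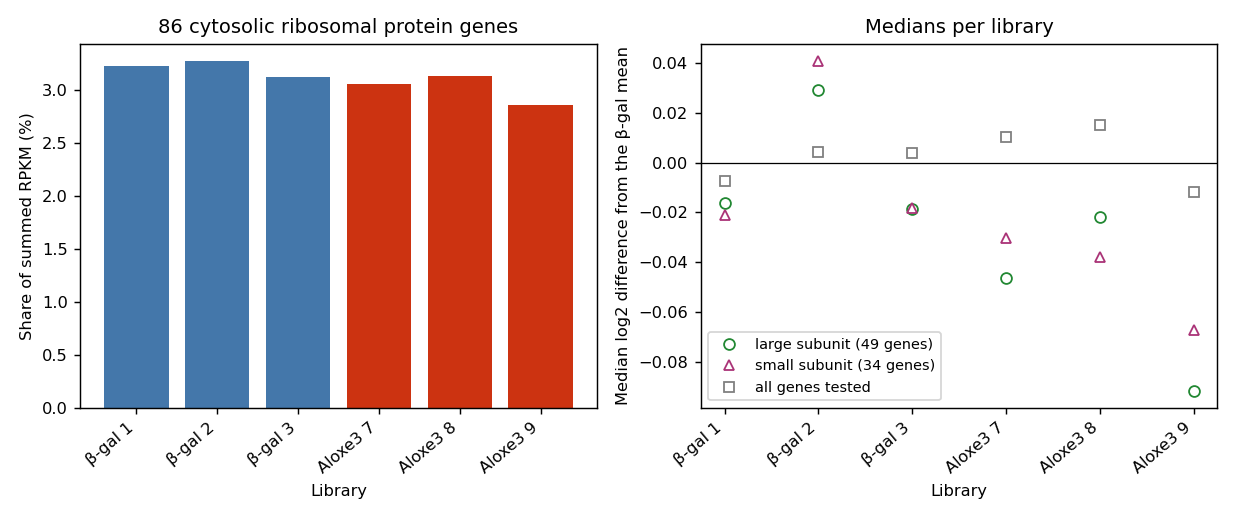
Left, share of the summed RPKM (%) taken by the 86 genes in each library; right, the median over large subunit members (circles), small subunit members (triangles) and all genes tested (squares) of the log2(RPKM + 1) difference from the β-gal mean in each library. Aloxe3 replicate 9 has the lowest share (2.86%) and the lowest medians of both subunits.

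Each gene with a mean of at least 0.5 RPKM was tested with limma on log2(RPKM + 1), with the p-values adjusted over all 12693 genes tested (Benjamini-Hochberg, threshold 0.05). Of the 86 members, 83 passed this filter on the mean level. None of the 83 passed the threshold in either direction, with limma on RPKM or with voom on derived reads. With limma on RPKM 0.394% of all genes tested did (50 genes: 45 or 0.355% higher and 5 or 0.0394% lower with Aloxe3), and with voom 1.36% (173 genes). The smallest adjusted p among the members was 0.246, for Rps28 (limma), and over the alternative settings the smallest was between 0.0567 (voom in limma on derived reads, Rplp1) and 0.556 (without β-gal replicate 2).

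Below the threshold the members leaned towards lower values with Aloxe3. At an unadjusted p under 0.05 (limma), 13 members were lower and 1 was higher (Rpsa), against 5.42% lower and 7.31% higher among all genes tested. Without Aloxe3 replicate 9 these were 10 lower and 1 higher, beside 603 lower and 947 higher of all 12693 genes tested. The members were 4 lower and 1 higher without β-gal replicate 2, and 17 lower and 4 higher without Aloxe3 replicate 7. The shares over all genes in those fits are not given here. The log2 difference was below 0 for 52 of the 83 members (62.7%, against 47.6% of all genes tested in this fit), and for 53 without Aloxe3 replicate 9. The share over all genes moved with level and scaling. At a mean of at least 5 RPKM, 64.6% of members and 54.9% of all genes were below 0. With quantile normalization these were 66.3% and 53.05%, and with libraries rescaled to the same median 68.7% and 53.4%. All 3 Aloxe3 libraries lay below all 3 β-gal libraries for 15 members (18.1%, against 8.71%), and above them for 2 (2.41%, against 11.2%). Without Aloxe3 replicate 9 these were 16 (19.3%, against 12.2%) and 5 (6.02%, against 19.0%).

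The median log2 difference of the 83 members was -0.051, with a range from -0.27 (Rps28) to 0.68 (Rps27rt), beside a median of 0.0049 over all genes tested. It was -0.024 without Aloxe3 replicate 9 and -0.027 without β-gal replicate 2. Per library, the median over members of the log2 difference from the β-gal mean was -0.017, 0.030 and -0.019 in β-gal replicates 1, 2 and 3, and -0.041, -0.022 and -0.082 in Aloxe3 replicates 7, 8 and 9. All 3 Aloxe3 medians lay below the β-gal medians, that of replicate 8 only just.

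The large and small subunit did not separate. The median log2 difference was -0.042 over 49 large subunit members and -0.066 over 34 small subunit members, with 31 of 49 and 21 of 34 below 0 (47.6% of all genes tested). These medians were -0.022 and -0.026 without Aloxe3 replicate 9. The large subunit median was -0.026 without β-gal replicate 2, and that of the small subunit -0.041 without β-gal replicate 3. The difference between these medians, 0.024, changed its sign when β-gal replicate 3 (-0.0045) or Aloxe3 replicate 8 (-0.012) was left out, and was 0.0043 when replicate 9 was. In the single libraries the large minus small difference was between -0.012 and 0.0046 with β-gal and between -0.024 and 0.016 with Aloxe3.

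**Figure D4:**
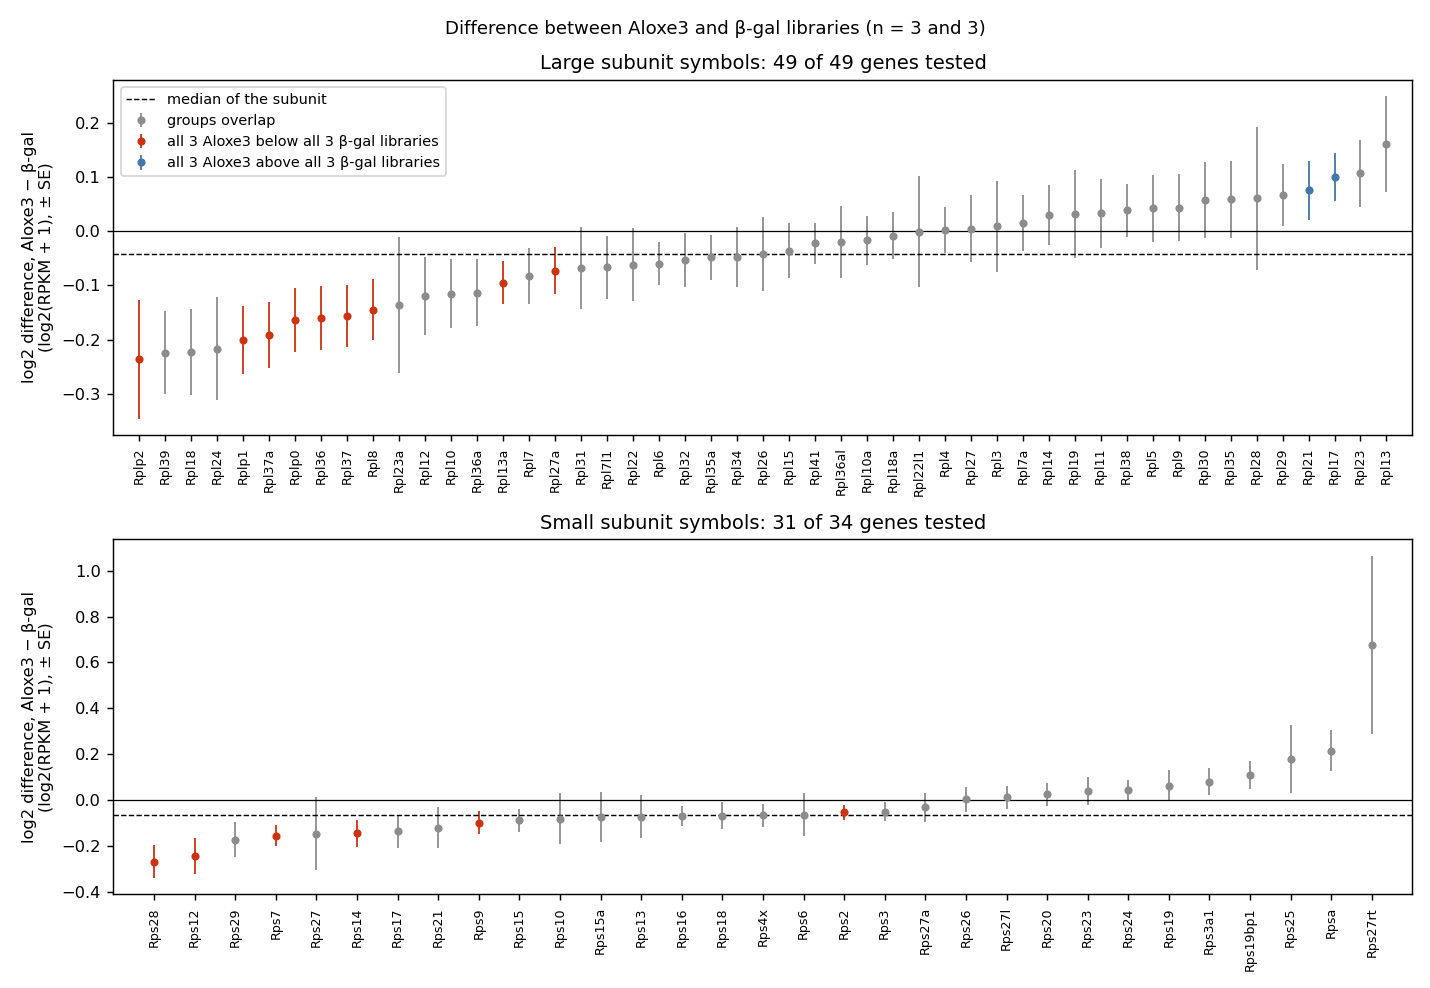
Difference in log2(RPKM + 1), Aloxe3 minus β-gal, for 49 large (top) and 31 of 34 small subunit genes tested (bottom), in order of size; bars are the limma SE, and the dashed line is the median over all tested genes of the subunit (-0.042 and -0.066). Red marks the 15 genes whose 3 Aloxe3 libraries all lie below the β-gal libraries, blue the 2 genes (Rpl17, Rpl21) whose Aloxe3 libraries all lie above, and no gene passed the threshold.

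The members that form the P stalk of the large subunit, which recruits elongation factors, were all lower on average, 4 of 4 (47.6% of all genes tested), and 3 of them had no overlap (8.71%). Rplp1 (chr9:61913284-61914542) stood at 2335, 2275 and 2088 RPKM with β-gal and at 2004, 1997 and 1825 RPKM with Aloxe3. Rplp0, the base of the stalk, stood at 303.9, 296.2 and 281.2 RPKM with β-gal and 274.9, 271.4 and 241.1 RPKM with Aloxe3. Rplp2, the partner of Rplp1, stood at 111.6, 105.8 and 98.84 RPKM with β-gal and 97.67, 98.83 and 73.63 RPKM with Aloxe3. In each of these 3 genes every Aloxe3 library lay below every β-gal library, for Rplp2 with replicate 8 only just below β-gal replicate 3. The log2 differences were -0.20 for Rplp1 (SE 0.06, limma adjusted p = 0.286), -0.16 for Rplp0 (SE 0.06, limma adjusted p = 0.324) and -0.24 for Rplp2 (SE 0.11, limma adjusted p = 0.422). Without Aloxe3 replicate 9 the difference was -0.10 for Rplp0 and -0.099 for Rplp2. Rpl12, which binds beside Rplp0 at the stalk base, had groups that overlapped (9.05 ± 0.80 and 8.25 ± 0.63 RPKM, SD, n = 3 each). The median log2 difference of the 4 genes was -0.18, and -0.10 without Aloxe3 replicate 9.

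**Figure D5:**
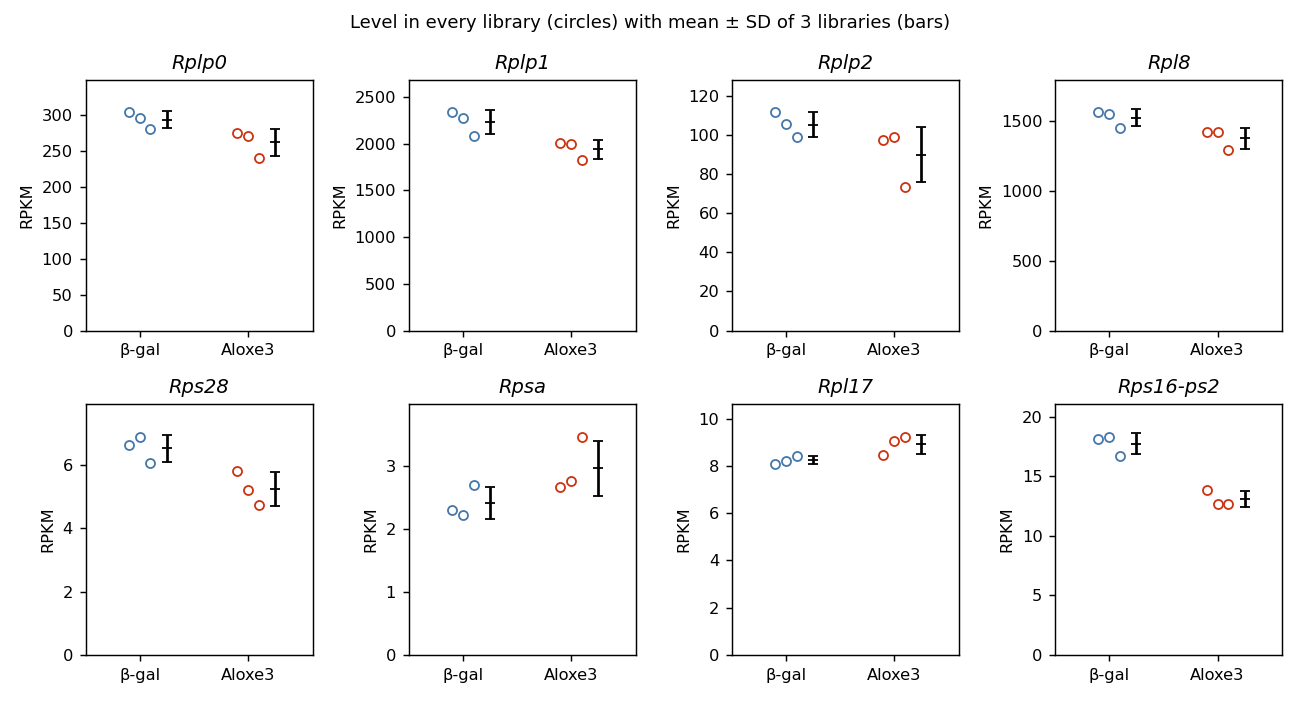
RPKM in each library (circles) with the mean and SD of 3 libraries (bars) for Rplp0, Rplp1, Rplp2, Rpl8, Rps28, Rpsa, Rpl17 and the pseudogene Rps16-ps2, each axis starting at 0. Rps16-ps2 is the only one of the 8 that passed the threshold, and the groups of Rpsa overlap.

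Rpl8 lies near the peptidyl transferase centre of the large subunit, and 8.73% of its coding windows were found in another gene. It stood at 1560, 1552 and 1452 RPKM with β-gal and at 1418, 1422 and 1290 RPKM with Aloxe3. The groups did not overlap, and the log2 difference of -0.14 (SE 0.06) had a limma adjusted p of 0.348. Rpl5 and Rpl11, which bind the 5S ribosomal RNA and in free form the ubiquitin ligase Mdm2, showed no separation. Rpl5 ranged from 1.30 to 1.51 RPKM with β-gal and from 1.39 to 1.58 RPKM with Aloxe3. Rpl11 ranged from 2.02 to 2.29 RPKM and from 2.06 to 2.42 RPKM.

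Around the tunnel through which the new peptide leaves, the 3 members differed in direction. Rpl4 stood at 633 ± 12 RPKM in β-gal libraries and 634 ± 24 RPKM in Aloxe3 libraries (SD, n = 3 each). Rpl17 was 1 of the 2 tested members whose Aloxe3 libraries all lay above the β-gal libraries, at 8.08, 8.20 and 8.42 RPKM with β-gal and 8.44, 9.04 and 9.23 RPKM with Aloxe3. Its log2 difference was 0.10 (SE 0.04, limma adjusted p = 0.402), and 100% of its coding windows were found in other genes. Rpl39, a short protein of the tunnel wall, stood at 26.65, 28.43 and 28.62 RPKM with β-gal and 27.08, 22.09 and 22.32 RPKM with Aloxe3. Replicate 7 lay among the β-gal libraries, and the log2 difference was -0.22 (SE 0.08, limma adjusted p = 0.313). Of the 5 proteins at the rim of the exit (Rpl19, Rpl23a, Rpl26, Rpl31 and Rpl35), 3 had a log2 difference below 0, and all 5 had overlapping groups.

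The other large subunit genes among the 6 with the smallest p were structural proteins. Rpl37a stood at 86.40, 91.39 and 84.53 RPKM with β-gal and 82.05, 77.34 and 70.30 RPKM with Aloxe3, with no overlap (log2 difference -0.19, SE 0.06, limma adjusted p = 0.289). Rpl36 stood at 16.34, 16.10 and 15.65 RPKM with β-gal and 14.84, 15.06 and 12.92 RPKM with Aloxe3, also with no overlap (log2 difference -0.16, SE 0.06, limma adjusted p = 0.333, and a difference of -0.094 without Aloxe3 replicate 9). Rpl18 overlapped, at 16.41, 17.65 and 16.17 RPKM with β-gal and 16.21, 12.89 and 13.68 RPKM with Aloxe3 (log2 difference -0.22, SE 0.08, limma adjusted p = 0.321).  Rpl37, Rpl13a and Rpl27a, named here after their values were seen, completed the 9 large subunit genes that lay lower with no overlap, with log2 differences of -0.16, -0.095 and -0.073. That of Rpl37 was -0.090 without Aloxe3 replicate 9. Rpl21 was the other tested member whose Aloxe3 libraries all lay above the β-gal libraries, at 1.19, 1.17 and 1.27 RPKM with β-gal and 1.30, 1.36 and 1.34 RPKM with Aloxe3 (log2 difference 0.075, SE 0.06, limma adjusted p = 0.599). The difference of Rpl21 was 0.026 with quantile normalization, 0.13 with a pseudocount of 0.1 and 0.14 with voom.

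On the small subunit, 6 of the 34 genes tested lay lower with Aloxe3 with no overlap, and none lay higher (8.71% and 11.2% of all genes tested). Rps28, which lies on the side where the mRNA leaves, had the smallest p of all members. It stood at 6.63, 6.89 and 6.05 RPKM with β-gal (313, 327 and 262 reads) and 5.81, 5.21 and 4.73 RPKM with Aloxe3 (217, 232 and 183 reads), a log2 difference of -0.27 (SE 0.07, limma adjusted p = 0.246). All of its coding windows were found in other genes. Rps14, at the same side, stood at 292.6, 300.1 and 292.9 RPKM with β-gal and 283.1, 275.2 and 243.8 RPKM with Aloxe3 (log2 difference -0.15, SE 0.06, limma adjusted p = 0.360). Without Aloxe3 replicate 9 the log2 difference of Rps14 was -0.080. The other 2 genes of this side did not follow. Rps26 stood at 762 ± 28 RPKM in β-gal libraries and 764 ± 43 RPKM in Aloxe3 libraries (SD, n = 3 each). Rpsa, also known as the laminin receptor, stood at 2.30, 2.22 and 2.69 RPKM with β-gal and 2.65, 2.76 and 3.46 RPKM with Aloxe3 (log2 difference 0.21, SE 0.09, limma adjusted p = 0.384). The difference of Rpsa was 0.13 without Aloxe3 replicate 9. Its groups overlapped through β-gal replicate 3 and Aloxe3 replicate 7.

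Rps12, a protein of the beak of the small subunit, stood at 17.25, 15.81 and 15.27 RPKM with β-gal and 13.58, 14.93 and 11.92 RPKM with Aloxe3. The log2 difference was -0.24 (SE 0.08, limma adjusted p = 0.291), and its partner in the beak, Rps10, had groups that overlapped, from 14.8 to 18.0 RPKM and from 13.3 to 17.9 RPKM. Rps7 stood at 55.41, 58.08 and 55.73 RPKM with β-gal and 53.41, 50.22 and 47.99 RPKM with Aloxe3, with no overlap (log2 difference -0.16, SE 0.05, limma adjusted p = 0.269). Rps9 and Rps2 were the other genes with no overlap, with log2 differences of -0.099 and -0.055. Rps9 was at -0.057 without Aloxe3 replicate 9 and at -0.066 without β-gal replicate 2, and Rps2 at -0.036 without β-gal replicate 3. Among the 4 members listed around the decoding site and the mRNA entry (Rps23, Rps15, Rps3 and Rps2), Rps2 was the only one with no overlap.

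Rps6, the substrate of the S6 kinases downstream of mTOR, ranged from 1.42 to 1.96 RPKM with β-gal and from 1.33 to 1.69 RPKM with Aloxe3, on 64 to 92 reads per library. Rps27a, made as a fusion with ubiquitin, ranged from 2.93 to 3.53 RPKM with β-gal and from 2.97 to 3.19 RPKM with Aloxe3. Both had overlapping groups and 100% of their windows in other genes. Rps29, a zinc-binding protein of the small subunit, stood at 1.57, 1.65 and 1.51 RPKM with β-gal and 1.53, 1.14 and 1.20 RPKM with Aloxe3. The log2 difference of Rps29 was -0.17 (SE 0.08, limma adjusted p = 0.402), with replicate 7 inside the β-gal range. It was -0.28 with a pseudocount of 0.1 and -0.30 with voom.

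The 11 genes with under 50% of their coding windows in other genes, overlapping genes left out, had the highest median of reads of the 3 classes, 12310 per library. Of the 11, 9 had a log2 difference below 0 (47.6% of all genes tested), 3 lay lower with no overlap (Rpl8, Rpl13a and Rps9, against 8.71% of all genes), and the median was -0.089. Without Aloxe3 replicate 9 the median was -0.028, with 8 of the 11 below 0, and without β-gal replicate 2 it was -0.045. Rpl13a had 38.75% of its coding windows in other genes, but 97.5% in annotated genes that overlap it. Of the 10 genes without Rpl13a, 8 were below 0 and 2 lay lower with no overlap, with a median of -0.075 (-0.024 without Aloxe3 replicate 9 and -0.043 without β-gal replicate 2). Both choices were made after the data were seen. Rps3, a protein of the mRNA entry with 8.09% of its windows elsewhere, stood at 171.0, 179.9 and 170.9 RPKM with β-gal and 169.8, 172.9 and 161.1 RPKM with Aloxe3. Replicate 8 lay above β-gal replicates 1 and 3, and the log2 difference was -0.051 (SE 0.04, limma adjusted p = 0.649). It was -0.021 without Aloxe3 replicate 9 and -0.026 without β-gal replicate 2. Over all 77 genes the log2 difference and the share of windows elsewhere had a Spearman correlation of 0.14, given as a description.

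The paralogs that passed the filter had overlapping groups throughout. Rps27l, a paralog that is induced by p53, had a level of 61.5 RPKM as the mean of 6 libraries, against 1.32 RPKM for Rps27 itself. The sequences beside each other show what the reads could tell apart. The windows cover coding bases 7 to 56 of Rps27 (exon 2, chr3:90213252-90213301, minus strand), of Rps27rt (exon 1, chr9:114982652-114982701, minus strand) and of Rps27l (exon 2, chr9:66946831-66946880, plus strand), and capitals mark bases that differ from Rps27.
Rps27: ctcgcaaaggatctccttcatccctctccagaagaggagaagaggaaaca
Rps27rt: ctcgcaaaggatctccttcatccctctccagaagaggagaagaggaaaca
Rps27l: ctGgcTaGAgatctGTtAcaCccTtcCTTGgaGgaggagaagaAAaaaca

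Over the 252 coding bases, Rps27rt was identical to Rps27, and Rps27l differed at 60 bases (76.2% identity). Rps27 had 11, 13 and 10 reads with β-gal and 12, 6 and 7 reads with Aloxe3. Rps27rt had 7, 2 and 3 reads with β-gal and 3, 8 and 32 reads with Aloxe3, so its log2 difference of 0.68 (SE 0.39, limma adjusted p = 0.514) was carried by replicate 9. It was 0.17 without replicate 9, 1.02 without replicate 7, 1.35 with a pseudocount of 0.1 and 1.49 with voom, and Rps27rt was the 1 member that passed the filter only through replicate 9. Rps27l, with 1258 to 1628 reads, ranged from 59.3 to 62.7 RPKM with β-gal and from 58.3 to 65.6 RPKM with Aloxe3. Every coding window of Rps27 was found in another gene, against 48.3% of those of Rps27l.

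The other paralogs stood as follows in mean level over 6 libraries. Rpl7l1 stood at 39.4 RPKM beside 70.7 RPKM for Rpl7, and Rpl22l1 at 9.23 RPKM beside 71.3 RPKM for Rpl22. Rpl36al stood at 23.7 RPKM beside 5.98 RPKM for Rpl36a, whose coding windows were all found in other genes (81.4% for Rpl36al). Rps19bp1, with no window elsewhere, stood at 34.4 RPKM. The 3 members that were not tested were near or at 0. Rpl3l, the paralog of heart and skeletal muscle, had 5, 2 and 11 reads with β-gal and 7, 6 and 3 reads with Aloxe3, beside 20.3 RPKM for Rpl3. Rpl39l, the paralog of Rpl39, had 0, 1 and 1 reads with β-gal and 2, 2 and 6 reads with Aloxe3, with no overlap at these few reads. Rpl10l, the testis copy of Rpl10, had 0 reads in all 6 libraries, which allows up to 3 reads in each by counting error alone.

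The genes with -ps symbols of this family, named as pseudogenes, numbered 250, of which 25 passed the filter. Of the 25, 2 are annotated as protein coding (Rpl10-ps3 and Rpl9-ps6). The threshold was passed by 1 of the 25, lower with Aloxe3 (0.0394% of all genes tested). Rps16-ps2 (chr5:129128077-129128517, minus strand) had 258, 262 and 218 reads with β-gal and 156, 170 and 148 reads with Aloxe3. Its level fell from a β-gal mean of 17.7 ± 0.88 RPKM to 13.1 ± 0.68 RPKM (SD, n = 3 libraries each), which is a log2 difference of -0.41 (SE 0.05, limma adjusted p = 0.0270). The log2 difference lay between -0.45 and -0.39 under every alternative, while the limma adjusted p ranged from 0.00898 to 0.146 and missed the threshold with each library left out in turn. The parent gene Rps16 stood at 62.10, 60.94 and 58.95 RPKM with β-gal and 54.67, 59.15 and 59.31 RPKM with Aloxe3, with overlap (log2 difference -0.072, SE 0.04, limma adjusted p = 0.533, and a difference of -0.034 without Aloxe3 replicate 7). All 392 windows of the 441 annotated bases of Rps16-ps2 were found exactly in the Rps16 transcript. The 50 bases below lie at chr5:129128420-129128469 (minus strand) in Rps16-ps2 and at chr7:28350992-28351041 (plus strand, exon 2) in Rps16.
Rps16 and Rps16-ps2: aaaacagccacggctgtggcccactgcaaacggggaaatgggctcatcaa

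Since no read within the annotated bases tells both genes apart, the split of reads between Rps16 and its copy is uncertain, and which of them the difference belongs to was not tested. The next pseudogene by p was Rpsa-ps1, with 25, 20 and 22 reads against 9, 5 and 11 reads (limma adjusted p = 0.182).

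Both named genes outside the naming rule had groups that overlapped. Rack1, the scaffold on the head of the small subunit, stood at 384 ± 12 RPKM in β-gal libraries and 358 ± 19 RPKM in Aloxe3 libraries. Fau, which encodes a ubiquitin-like fusion of a small subunit protein, stood at 16.8 ± 0.75 and 15.5 ± 1.7 RPKM. These are means and SDs over n = 3 libraries each. The log2 difference was -0.099 for Rack1 (-0.055 without Aloxe3 replicate 9) and -0.11 for Fau. That of Fau was -0.053 without Aloxe3 replicate 7 and -0.19 without replicate 8.

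In the other lists of ribosome assembly and translation, no gene of the 8 lists tested passed the threshold with limma on RPKM (0.394% of all genes) or with voom on derived reads (1.36%). At an unadjusted p under 0.05, 5.42% of all genes tested were lower and 7.31% higher. Lower genes were 10 of 50 in pre-rRNA processing, 2 of 9 elongation and termination factors and 2 of 11 other mRNAs with a TOP start. None of these lists held a higher gene. Of 15 RNA polymerase I genes, 1 was lower and 2 were higher. The remaining lists, of 7 to 20 genes, held at most 1 in either direction. Of 9 elongation and termination factors, 7 had a log2 difference below 0 (median -0.050, and -0.027 without Aloxe3 replicate 9, against 47.6% of all genes below 0) and 3 lay lower with no overlap (8.71% of all genes). Eif5a, the hypusine-bearing factor, stood at 364 ± 9.2 and 337 ± 4.3 RPKM (SD, n = 3 each), and Eef1b2, the exchange factor of the elongation factor, at 185 ± 2.7 and 172 ± 8.7 RPKM. Of 11 other mRNAs with a TOP start, 7 were below 0, and 3 lay lower with no overlap (8.71% of all genes). Tpt1, a classical TOP mRNA, stood at 119 ± 2.8 and 107 ± 2.7 RPKM with no overlap (log2 difference -0.16, limma adjusted p = 0.189), and Vim at 1147 ± 96 and 993 ± 70 RPKM with overlap.

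Of 50 genes of pre-rRNA processing, 32 were below 0 (median -0.023, and -0.045 without Aloxe3 replicate 8), 12 lay below and 1 above with no overlap (8.71% and 11.2% of all genes tested), and 10 were lower at an unadjusted p under 0.05 (5.42% of all genes). Emg1, a methyltransferase of the small subunit rRNA, stood at 48.2 ± 0.40 and 42.7 ± 1.6 RPKM, and Wdr36 at 23.1 ± 0.21 and 20.7 ± 0.82 RPKM. Of 15 RNA polymerase I genes, 8 were below 0, 2 lay lower and 4 lay higher with no overlap (8.71% and 11.2% of all genes tested). Taf1d stood at 9.79 ± 0.21 and 11.45 ± 0.098 RPKM (higher, limma adjusted p = 0.0832), and Polr1b, the second largest subunit, at 16.0 ± 0.54 and 14.3 ± 0.57 RPKM. All 7 tested chaperones of ribosomal proteins were below 0 (median -0.067, against 47.6% of all genes below 0), 3 of them with no overlap (8.71% of all genes). Aamp stood at 43.0 ± 0.95 and 40.3 ± 1.7 RPKM, and Bccip at 33.1 ± 1.1 and 31.3 ± 0.95 RPKM.

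Of 20 genes of subunit assembly and export, 12 were below 0 (47.6% of all genes tested), and 1 lay lower and 2 lay higher with no overlap (8.71% and 11.2%). Eif6, which keeps the large subunit from joining too early, stood at 156 ± 4.0 and 145.5 ± 5.6 RPKM, and Xpo1, the export receptor, at 20.5 ± 0.56 and 21.7 ± 0.50 RPKM. Of 13 regulators of TOP mRNAs, 5 were below 0 and 2 lay higher with no overlap (47.6% and 11.2% of all genes), with Ssb at 41.5 ± 1.5 and 45.5 ± 2.9 RPKM and Tial1 at 13.0 ± 0.30 and 13.6 ± 0.26 RPKM. Of 8 host genes of small nucleolar RNAs, 7 were below 0 (47.6% of all genes), and 4 when Aloxe3 replicate 9 was left out (43.4%), with Snhg15 at 10.6 ± 0.27 and 9.52 ± 1.1 RPKM and Snhg6 at 29.9 ± 0.91 and 28.2 ± 2.7 RPKM.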

How the data were processed

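The deposited table held RPKM per gene for 6 libraries of primary murine hepatocytes, 3 with β-gal and 3 with Aloxe3. The authors aligned single 50-base reads with STAR 2.0.4b to the Ensembl release 76 assembly (GRCm38.p2) and counted uniquely aligned, unambiguous reads with featureCounts 1.4.5. The step from counts to RPKM is not given in the sources used here. Whole reads were derived from the steps of the RPKM values, with the GENCODE M21 exon length for 16822 of 24989 genes above 0 (tolerance 0.05 reads) and otherwise with the smallest length that gave whole reads in all libraries (8166 genes, tolerance 0.01), so single read numbers carry that assumption. By the counting of uniquely aligned reads, those that fit a copy equally well should be left out, and how far this touches each value was not tested.

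Genes whose mean over the 6 libraries reached 0.5 RPKM were tested with limma 3.58.1 (R 4.3.3) on log2(RPKM + 1) with a variance trend and Benjamini-Hochberg adjustment over all genes, a scale that understates changes of low genes. The fit was also run on simulated data, with larger changes than most members showed. That run does not show whether changes of their size could be called. An exact permutation test of 3 against 3 cannot go below 0.1 and was not used. The members and lists were chosen with earlier results of these data known. Named genes were, in each subunit, the 6 smallest p, the 5 highest and 5 lowest levels, the untested members, paralogs, role groups, and the 2 smallest p of each other list, with called pseudogenes and their parents. Rpl37, Rpl13a, Rpl27a, Rpl7a, Rpl35a, Rps9, Rps10, Rps15a, Rps24, Rps25, Rpl28, Ttr and the uncalled pseudogenes were named after their values were seen. Of the listed symbols, Riok2, Snhg1, Snhg4, Snhg7 and Snhg8 were not matched. Windows were compared with annotated transcripts only. A few genes are counted in the totals but are not reported here by name.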

Additional observations from a re-analysis of the deposited data

How the results depend on the processing

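No member passed the threshold under any alternative. The count over all genes, 50, was 7 with no filter, 173 with voom on derived reads and between 6 and 19 with a library left out. The median log2 difference of the members, -0.051, lay between -0.089 and -0.042 under the other settings and between -0.054 and -0.024 with a library left out. The value of -0.089 came from the genes with few shared windows, a choice made after seeing the data. The large minus small difference, 0.024, ranged from -0.012 to 0.022 with a library left out and from 0.021 to 0.038 under the other settings, highest with quantile normalization. With quantile normalization the median of the large subunit was -0.016, and the log2 difference was -0.092 for Rps14, -0.059 for Rps9, -0.022 for Rps2, -0.030 for Rps3, -0.063 for Rpl13a and -0.046 for Rps16. With the GC correction that of Rps2 was -0.035. The difference in the share of summed RPKM, -0.19 percentage points, ranged from -0.25 to -0.11 with a library left out and was -0.066 without Rplp1 and Rpl8, also chosen after seeing the data. Members lower at an unadjusted p under 0.05 (13) numbered 9 to 18 under other settings and 4 to 17 with a library left out. Of 699 values under alternatives of 47 of the named genes, 681 kept their direction and side of the threshold. The other 18 kept their direction but missed it, all of Ttr (a limma adjusted p up to 0.164) and Rps16-ps2. The latter had a limma adjusted p of 0.146 with no filter and 0.0513 with no variance trend. Only 2 of the 47 passed the threshold in the main fit. Some named genes outside the 47 changed direction. Rps6, at -0.064, was at 0.0048 without Aloxe3 replicate 8 and 0.0083 without β-gal replicate 3. Rps27a, at -0.032, was at 0.030 without β-gal replicate 2. Rpl5 and Rpl11 were both below 0 with quantile normalization. The causes were not tested. No paired analysis was possible because the groups share no replicate numbers. With 3 libraries a group, members at 0 or a few reads carry no usable difference.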

Other observations

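Of the 25 tested genes with -ps symbols, named as pseudogenes of ribosomal proteins, 15 had a log2 difference above 0 and 10 below (median 0.089, against 47.6% of all genes below 0). Without Aloxe3 replicate 9, 11 were above and 14 below 0 (median -0.027, against 43.4% of all genes below 0). In 2 of them (Rpl10-ps3 and Rpl39-ps) the mean reached the filter only through Aloxe3 replicate 9. Among the others, 3 were singled out for a high value in this library. Rpl28-ps1 had 7, 9 and 12 reads with β-gal and 7, 11 and 51 reads with Aloxe3. Rpl9-ps6, annotated as protein coding, had 11, 9 and 16 reads and 11, 7 and 57 reads. Rpl10a-ps1 had 42, 43 and 50 reads and 35, 43 and 111 reads. The last value of each is that of replicate 9. The spliced gene Rpl28 stood at 17.3, 16.1 and 24.3 RPKM in Aloxe3 replicates 7, 8 and 9.

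A different library stood apart for Rps25 of the small subunit, which had 686, 1029 and 946 reads with β-gal and 821, 875 and 902 reads with Aloxe3. The lowest value was that of β-gal replicate 1, although it was the second largest library.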
